A study of Mus musculus with 12 samples.

Results

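The nuclear genes for the subunits of the mitochondrial respiratory chain were examined in chromatin immunoprecipitation sequencing (ChIP-seq) lists from mouse pluripotent cells. Genes were taken by symbol from the RefSeq annotation of GRCm38.p6, as protein-coding genes whose symbols begin with Nduf, Uqcr, Cox4 to Cox8 or Atp5. This rule gave 92 of 21883 protein-coding genes. They comprised 7 core subunits, 30 accessory subunits and 8 assembly factors of complex I, 8 subunits of complex III, 11 subunits of complex IV, 8 tissue-restricted complex IV isoforms, the supercomplex factor Cox7a2l, 5 F1 and 12 Fo or stalk subunits of ATP synthase, and 2 short genes, Ndufb4b and Ndufb4c, named as copies of Ndufb4. Each gene was read over its span with 10 kb on each side, in which the 92 genes touched 283 of the 54825 bins listed in either embryonic stem cell list.

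The study asked how the zinc-finger transcription factor KLF4 relates to enhancers in pluripotent cells, and 12 samples were described. Embryonic stem cells (ESCs) of the V6.5 line carried a lentiviral, doxycycline-inducible Cas9 together with guide RNAs, and clones had been picked by hand after puromycin selection. H3K27ac, the acetylated lysine 27 of histone H3 that marks active promoters and enhancers, was measured 24 h after induction and in uninduced cells (0 h, titled WT), with 2 biological replicates each and 2 inputs. Induced pluripotent stem cells (iPSCs) had 2 replicates for KLF4 and 2 for H3K27ac, each with 1 input. The 0 h cells thus also carry the Cas9 construct and guides. The labels name guides for either KLF4 by itself or for the trio of KLF2, KLF4 and KLF5, and the 24 h titles carry both TKO and KLF4 KO, so which genes were cut is not settled here. All samples are labelled as cultured in 2i medium, and the ESC growth protocol names irradiated feeder cells.

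For each ChIP group 1 list was deposited, without separate values for its replicates, so no difference below carries a test across replicates and the depth behind each value is unknown. The ESC lists hold 10 kb bins with an H3K27ac value and a whole-number bin score, and the iPSC lists hold peak positions. The labelled cell type was checked on marker genes, and all 10 pluripotent markers, Pou5f1, Sox2 and Nanog among them, had a value at 24 h and at 0 h. Values at both times were found for 5 of 9 fibroblast, 2 of 4 primitive endoderm and 2 of 3 neuroectoderm markers, near the share of all protein-coding genes with a value (54.3% at 24 h and 56.0% at 0 h), and Col1a2, Thy1, Postn and Twist2 had none. Set against the median of all bins, 9 of the 10 pluripotent markers were lower at 24 h, where 46.7% of all measured genes were. Their median log2 over all 10 was -0.15, and the lowest, Tbx3, lay at -0.22. The exception was Klf5, 1 of the genes for which the labels name guides, which was higher at 24 h (0.43). The part of feeder cells in the values of the respiratory genes was not tested.

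The respiratory chain couples oxidation of nutrients to ATP synthesis in the inner mitochondrial membrane. Complex I takes electrons from NADH, complex III passes them from ubiquinol to cytochrome c, complex IV reduces oxygen, and ATP synthase uses the proton gradient these complexes build. Most subunits are encoded in the nucleus, and their promoters are known for sites of the factors NRF1, YY1, SP1 and the ETS protein GABP. Naive mouse pluripotent cells use oxidative phosphorylation as well as glycolysis.

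Promoter windows of 300 bases (250 before to 50 after the RefSeq start, GRCm38.p6) were held for 75 of the 92 genes, as 80 windows. An iPSC KLF4 peak lay over the window of 11 genes: Atp5pb, Cox5a, Ndufa1, Ndufa7, Ndufa11, Ndufa13, Ndufaf3, Ndufaf4, Ndufb5, Ndufs7 and Ndufv2. The windows of 6 of these are shown because they span the kinds of letters found in windows that a KLF4 peak overlaps, from a KLF-type match to no match, and because Ndufa11 and Cox5a lie near opposite ends of the H3K27ac values. Capitals mark a motif match on either strand, and each sequence runs 5′ to 3′ on the strand of the gene. Ndufaf3, a complex I assembly factor (chr9:108567387-108567686, minus strand), held the only KLF match among the 6, the reverse complement of GGGNGTGG, with its first base at -52 from the start. Atp5pb, the peripheral stalk subunit b of ATP synthase (chr3:105959214-105959513, minus strand), held the SP motif GGGGCGGGG at -72. Ndufaf4, another complex I assembly factor (chr4:24897833-24898132, plus strand), and Ndufa11, an accessory subunit of the complex I membrane arm (chr17:56717512-56717811, plus strand), held the NRF1 motif (GCGCA, any base, GCGC) as GCGCATGCGC at -113 and -60. Ndufs7, the core subunit that holds an iron-sulphur cluster of complex I (chr10:80249199-80249498, plus strand), held the YY1 motif AAGATGGCG at 24, downstream of the start. Cox5a, a nuclear-encoded subunit of complex IV (chr9:57520982-57521281, plus strand), held no match to any of the 5 motifs.
Ndufaf3: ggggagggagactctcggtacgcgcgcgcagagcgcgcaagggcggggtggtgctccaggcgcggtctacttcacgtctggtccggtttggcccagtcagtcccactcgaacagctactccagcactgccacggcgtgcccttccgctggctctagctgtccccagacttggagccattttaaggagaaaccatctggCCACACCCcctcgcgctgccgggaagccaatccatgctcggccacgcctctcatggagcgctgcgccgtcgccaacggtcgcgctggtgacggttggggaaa
Atp5pb: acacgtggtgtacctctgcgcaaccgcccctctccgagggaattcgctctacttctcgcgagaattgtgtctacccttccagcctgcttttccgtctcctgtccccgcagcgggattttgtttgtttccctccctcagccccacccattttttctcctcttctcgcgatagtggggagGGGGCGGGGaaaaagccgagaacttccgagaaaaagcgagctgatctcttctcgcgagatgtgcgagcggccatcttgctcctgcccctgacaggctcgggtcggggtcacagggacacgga
Ndufaf4: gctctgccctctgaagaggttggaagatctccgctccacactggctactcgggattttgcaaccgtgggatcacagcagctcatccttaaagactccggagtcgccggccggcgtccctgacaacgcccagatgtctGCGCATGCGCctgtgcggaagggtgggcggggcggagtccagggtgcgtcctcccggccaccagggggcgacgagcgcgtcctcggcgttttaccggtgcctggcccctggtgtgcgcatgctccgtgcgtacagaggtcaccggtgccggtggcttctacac
Ndufa11: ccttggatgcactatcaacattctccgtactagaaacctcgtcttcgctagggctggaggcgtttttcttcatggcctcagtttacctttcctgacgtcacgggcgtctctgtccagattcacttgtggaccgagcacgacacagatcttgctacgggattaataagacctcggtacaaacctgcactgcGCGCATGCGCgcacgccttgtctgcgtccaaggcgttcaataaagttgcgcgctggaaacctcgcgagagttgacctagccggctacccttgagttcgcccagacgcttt
Ndufs7: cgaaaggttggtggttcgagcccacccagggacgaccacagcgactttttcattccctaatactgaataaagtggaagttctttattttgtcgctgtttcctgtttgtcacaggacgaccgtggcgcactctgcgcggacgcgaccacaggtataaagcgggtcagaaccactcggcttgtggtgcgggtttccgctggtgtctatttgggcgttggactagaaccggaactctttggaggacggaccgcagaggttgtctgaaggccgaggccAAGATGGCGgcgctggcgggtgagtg
Cox5a: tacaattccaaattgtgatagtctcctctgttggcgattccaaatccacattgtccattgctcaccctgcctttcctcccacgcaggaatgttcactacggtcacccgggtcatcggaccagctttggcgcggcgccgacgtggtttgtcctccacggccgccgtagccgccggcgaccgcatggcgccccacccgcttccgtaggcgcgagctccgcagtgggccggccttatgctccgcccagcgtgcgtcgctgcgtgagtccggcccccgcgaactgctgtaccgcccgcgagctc

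Most respiratory chain genes carried H3K27ac in ESCs at both times. At least 1 valued bin was found for 74 of the 92 genes at 24 h and for 76 at 0 h, against 54.3% of all protein-coding genes at 24 h and 56.0% at 0 h. The highest value per gene had a median of 5.34 at 24 h and 6.12 at 0 h over the respiratory genes, and of 5.05 at 24 h and 5.85 at 0 h over all genes. Because the scaling between the lists is not known, each log2 ratio of the 24 h value over the 0 h value was set against the median over the 22739 bins with values in both lists, which was -0.23 (a ratio of 0.854). The result is called the relative value, and a gene is counted as past the threshold when its relative value is above 0.32 or below -0.32.

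Over the 73 genes with a bin valued at both times the median was 0.00 with an SD across genes of 0.16, and over the 11239 protein-coding genes measured it was 0.02 with an SD of 0.27. Values below 0 were found for 36 of the 73, and 46.7% of all measured genes were below 0. Of the 73 genes, 3 were past the threshold on the higher side at 24 h, where 9.45% of all measured genes were, and 2 were past it on the lower side, where 8.06% of all genes were. Other genes of the same decile of 0 h level were past the threshold in 7.67% (higher) and 8.22% (lower), and those that also matched in the number of bins valued at both times in 7.75% and 8.33%. The relative value of 40 of the 73 genes was within 0.1 of 0, as was that of 37.4% of all measured genes.

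**Figure D1:**
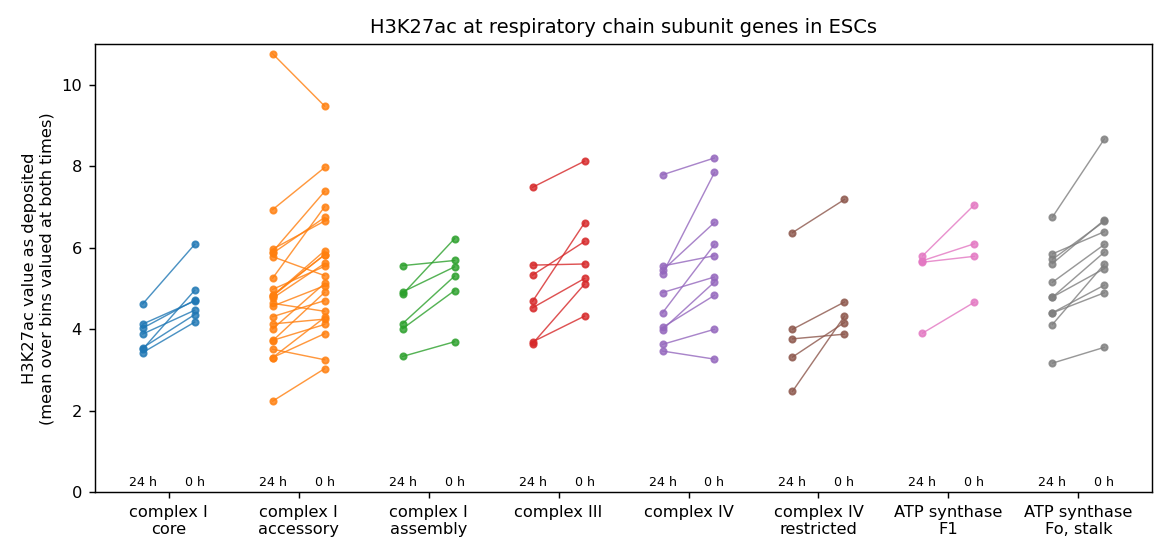
Mean H3K27ac value as deposited (vertical axis, arbitrary units) over the bins valued at both times for each of the 73 respiratory genes, at 24 h (left point) and 0 h (right point) joined by a line, by complex; Cox7a2l is drawn with complex IV. Most lines are lower at 24 h, as the median ratio of all bins is 0.854, and Ndufa11 is the highest gene at 24 h with 10.8.

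Complex I core subunits, which carry the flavin, the iron-sulphur clusters and the quinone site, had a median relative value of -0.05, and all 7 had a value at both times. Ndufs3, a core subunit of the peripheral arm, was the lowest at -0.28, with mean values of 3.51 at 24 h and 4.96 at 0 h. Ndufs1, the largest core subunit, had a highest value of 6.25 at 24 h and of 9.66 at 0 h, which is among the highest 0 h values of the 92 genes. Its 6 bins did not behave alike, since the pair with that high value had relative values of -0.42 and -0.40, and the other 4 lay between -0.01 and 0.10.

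Of the 30 accessory subunits of complex I, which stabilise the core and take part in its assembly, 23 had a value at both times, with a median of 0.02. All 3 genes past the threshold on the higher side were of this class. Ndufa11 had 10.8 at 24 h and 9.48 at 0 h in both bins valued at both times, a relative value of 0.41, and another of its bins had 2.66 at 24 h and none at 0 h. The bin holding its start (chromosome 17, bin from 56710001 to 56720000) is 1 of these, and the valued bins also touch Ranbp3 and Vmac. Ndufab1, the mitochondrial acyl carrier protein, had the same 3.51 at 24 h and 3.25 at 0 h in 2 adjacent bins, a relative value of 0.34. The bin with its start (chromosome 7, bin from 122100001 to 122110000) had no listing at 24 h and 5.03 at 0 h, so its higher value rests on the bins of the gene body and end alone.

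Ndufv3, a small subunit of the flavoprotein part, had a relative value of 0.33 from bins with 6.06, 3.65 and 4.20 at 24 h and 6.50, 3.63 and 3.20 at 0 h. Its start lies in the bin with 3.65 at 24 h and 3.63 at 0 h, which alone gave 0.24. Ndufa10 had a relative value of 0.25, below the threshold, and Ndufs5 had the lowest 0 h value of the 92 genes, with 2.24 at 24 h and 3.04 at 0 h. Ndufs4, an accessory subunit whose loss in mice is a model of Leigh syndrome, had 6.63 at 24 h and 10.7 at 0 h in the highest of its bins. That pair of bins reached -0.47, while a second pair in the gene had 4.94 at 24 h and 4.81 at 0 h (0.27), and the bin of the start had 3.15 at 24 h and 3.95 at 0 h (-0.10). The mean over Ndufs4 was -0.10. Among the 8 assembly factors, 6 had a value at both times, all between -0.12 and 0.19.

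Complex III genes had a median of 0.00 over 7 of 8 genes. Uqcr10, a small subunit, was the second lowest of all respiratory genes at -0.33 and 1 of the 2 past the threshold on the lower side. Its bin with the start (chromosome 11, bin from 4700001 to 4710000) had 5.99 at 24 h and 6.68 at 0 h, a relative value of 0.07. The neighbouring bin lies past the end of the gene, in its flank, and had 3.39 at 24 h and 6.54 at 0 h, a relative value of -0.72. The place of Uqcr10 past the threshold thus rests on a bin outside the gene. Its valued bins also touch Zmat5. Uqcrc1, a core protein of the matrix side, lay at -0.26 on 1 bin, and Uqcrq, the ubiquinone-binding protein, at 0.22.

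Complex IV subunits had a median of 0.06 over 9 of 11 genes, with Cox6a1 the highest at 0.30 and Cox5a the lowest at -0.31, both just inside the threshold. Cox5a had 4 bins valued at both times, with 4.12, 6.37, 6.37 and 4.57 at 24 h. At 0 h they had 6.73, 9.54, 9.54 and 5.60. Their relative values were -0.48, -0.35, -0.35 and -0.07, and the middle bins hold the same pair of values. Another bin of Cox5a had 2.77 at 24 h and none at 0 h. The start bin of Cox5a alone gave -0.35. Cox6a1 had 3.01 and 3.93 at 24 h and 3.22 and 3.32 at 0 h, and its start lies in the bin with the smaller relative value, 0.13.

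Of the 8 tissue-restricted complex IV isoforms, 5 had a value at both times, with a median of -0.02. Cox4i2, the isoform known from lung and low oxygen, was the lowest of the 73 genes at -0.58. This rests on 1 bin with 2.48 at 24 h and 4.32 at 0 h, which lies past the end of the gene and touches Bcl2l1, and the bin over the gene had no value at 24 h and 3.13 at 0 h. With 25 kb flanks Cox4i2 lay at -0.14, inside the threshold. Cox6b2, the testis isoform of Cox6b, had 1 of the highest values of all, with 9.22 at 24 h and 10.3 at 0 h in its start bin (0.07). Cox6a2, the muscle isoform, and the testis isoforms Cox7b2 and Cox8c had no listed bin. Cox7a2l, which joins complexes III and IV in supercomplexes, lay at -0.20.

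ATP synthase genes lay inside the threshold throughout, with medians of 0.06 over 4 F1 genes and 0.01 over 11 Fo and stalk genes, and SDs of 0.12 and 0.10. The F1 genes ran from -0.06 for Atp5b, the catalytic β subunit, to 0.19 for Atp5d, the δ subunit of the central stalk. Atp5d had 5.65 at 24 h and 5.79 at 0 h. Atp5h, subunit d of the peripheral stalk, was the lowest Fo and stalk gene at -0.23, and Atp5pb the highest at 0.10, with 5.85 at 24 h and 6.40 at 0 h.

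**Figure D2:**
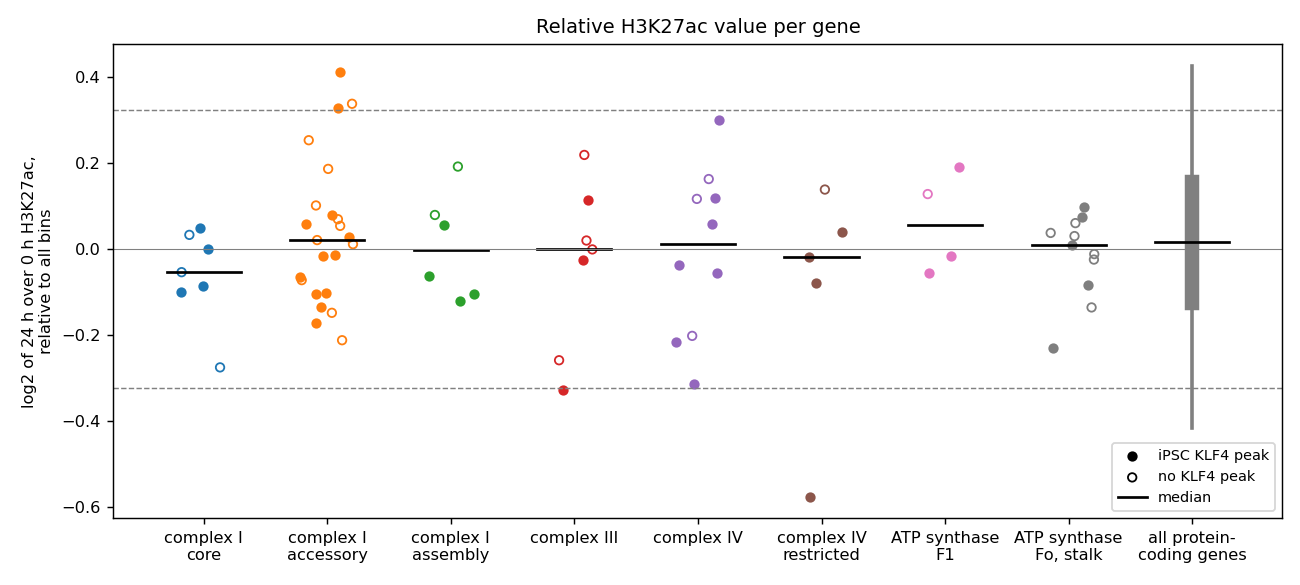
Relative H3K27ac value (vertical axis, log2 of 24 h over 0 h minus the median of all bins) of each of the 73 respiratory genes by complex, with filled points for genes with an iPSC KLF4 peak and open points for genes without one; black lines are medians, dashed lines mark the threshold of 0.32 and -0.32, and Cox7a2l is drawn with complex IV. The grey bar shows the middle 50% and the thin line the middle 90% of all protein-coding genes; 3 accessory complex I genes lie above the upper dashed line, and Uqcr10 and Cox4i2 lie below the lower one.

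Values at 1 time only were found for 4 genes. Atp5k, the e subunit of ATP synthase, had 3.81 at 24 h and none at 0 h, where 2.47% of all protein-coding genes had a value at 24 h alone. Cox7c, a complex IV subunit, had none at 24 h and 9.40 at 0 h, Cox7a2 had none at 24 h and 4.99 at 0 h, and the assembly factor Ndufaf1 had none at 24 h and 5.03 at 0 h, where 4.17% of all genes had a value at 0 h alone. Cox7c had the highest of these values, in the bin holding its start, and neither of its bins was listed at 24 h. No value at either time was found for 15 genes. Of these, 13 touched no listed bin (Atp5e, Cox6a2, Cox7b2, Cox8c, Ndufa1, Ndufa5, Ndufa8, Ndufa12, Ndufaf4, Ndufb2, Ndufb3, Ndufb4b and Uqcrfs1), and Ndufb4c and Ndufb9 touched a listed bin without a value. An unlisted bin is of unknown level, not one shown to lack acetylation.

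Bins of 10 kb are wide for these short genes, whose median length is 7106.5 bp, and 65 of them had another protein-coding gene in their valued bins, with a median of 2 such genes. A neighbour's acetylation and the gene's own cannot be told apart there. Reading only the bin that holds the start, 55 of 75 genes had a value at 24 h and 58 at 0 h, where 38.6% and 41.1% of all genes with a promoter window did. The median relative value of the 54 start bins valued at both times was 0.01 (SD 0.16), against -0.01 (SD 0.25) over 6346 other genes. One was past the threshold on the higher side (Ndufa11, 0.41; background 6.05%) and 1 on the lower side (Cox5a, -0.35; background 8.75%). Cox6b1, the ubiquitous form of Cox6b, followed at -0.32 with 5.32 at 24 h and 7.76 at 0 h.

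The bin score, the whole number in the fourth column, whose meaning the lists do not state, summed to 1258 at 24 h and 1394 at 0 h over the respiratory genes. The 24 h share was 47.4%, against 47.5% over all bins. Of the 79 genes with a score, 52 had a lower sum at 24 h, 13 an equal and 14 a higher one, where 54.5% of all genes were lower and 32.1% higher. Ndufa11 had the largest excess at 24 h, with 39 at 24 h and 25 at 0 h. Cox4i2 had the largest deficit, with 14 at 24 h and 25 at 0 h, followed by Cox8a with 42 at 24 h and 52 at 0 h. Ndufa11 and Cox4i2 were thus at the ends of both measures, which come from the same lists.

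In iPSCs, H3K27ac peaks were found at 87 of the 92 respiratory genes, 94.6% (exact binomial 95% interval 87.8 to 98.2%, for counting error only), where 59.7% of all protein-coding genes had one. The 5 without a peak were the restricted isoforms Cox6a2, Cox8b and Cox8c and the complex I genes Ndufa1 and Ndufa5. Most peaks were counted at Ndufa7 with 14, Cox5a with 13, Cox8a with 12 and Cox7a1 with 11. Among genes with a 0 h value in ESCs, 75 of 76 respiratory genes had a peak (98.7%), against 92.9% of other genes of equal level. Of the 13 genes without a listed ESC bin, all but Cox6a2, Cox8c, Ndufa1 and Ndufa5 had an iPSC H3K27ac peak, Atp5e, Uqcrfs1 and Ndufb3 among them.

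KLF4 peaks in iPSCs were found at 46 of the 92 genes, 50.0% (39.4 to 60.6%), where 52.6% of all genes had one. Among genes with a 0 h value the share was 56.6%, 43 of 76 genes, against 75.3% of other genes of equal 0 h level and 71.9% where the number of bins touched was also equal. By number of bins alone, over all 92 genes, the shares were 50.0% and 45.3%. Complex IV subunits had a KLF4 peak at 8 of 11 genes, ATP synthase F1 at 4 of 5, Fo and stalk genes at 5 of 12, complex I core subunits at 4 of 7 and accessory subunits at 13 of 30, and complex III at 3 of 8. Atp5d had 6 peaks, the most of any respiratory gene, and Ndufv2, a core flavoprotein-arm subunit, had 4. Cox6b1, Cox6b2, Ndufa13 and Ndufaf3 were among those with 3.

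At the starts themselves, an iPSC H3K27ac peak lay within 1 kb at 69 of 75 genes, 92.0%, where 41.7% of all genes with a promoter window had one, and over the window itself at 60 genes, 80.0% (background 35.3%). A KLF4 peak lay within 1 kb at 18 genes, 24.0%, where 29.4% of all genes had one, and over the window at the 11 genes named above, 14.7% (background 23.0%). Over starts with an H3K27ac peak, 17 of the 69 respiratory genes had KLF4, 24.6% (15.1 to 36.5%), against 50.8% of 7228 other genes (background over all such genes 50.5%). Other genes with H3K27ac peaks of equal width had KLF4 at 49.1%, those of equal GC content at 43.9%, and those of equal GC content matched more coarsely in width, above or below its middle, at 42.9%. Genes of equal 0 h level in ESCs had KLF4 within 1 kb at 43.5%, against 25.4% of 63 respiratory genes. The GC content of the windows had a median of 57.3% in respiratory genes and 61.7% in other genes, and the H3K27ac peaks at their starts had median widths of 765.0 and 778.5 bp. Respiratory starts with KLF4 had wider H3K27ac peaks, a median of 1101 bp over 17 genes, than the 52 without it, 646.5 bp, and the same order held in other genes, 887.0 and 691.0 bp. Ndufa1 had a KLF4 peak over its window and no H3K27ac peak within 1 kb of its start.

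**Figure D3:**
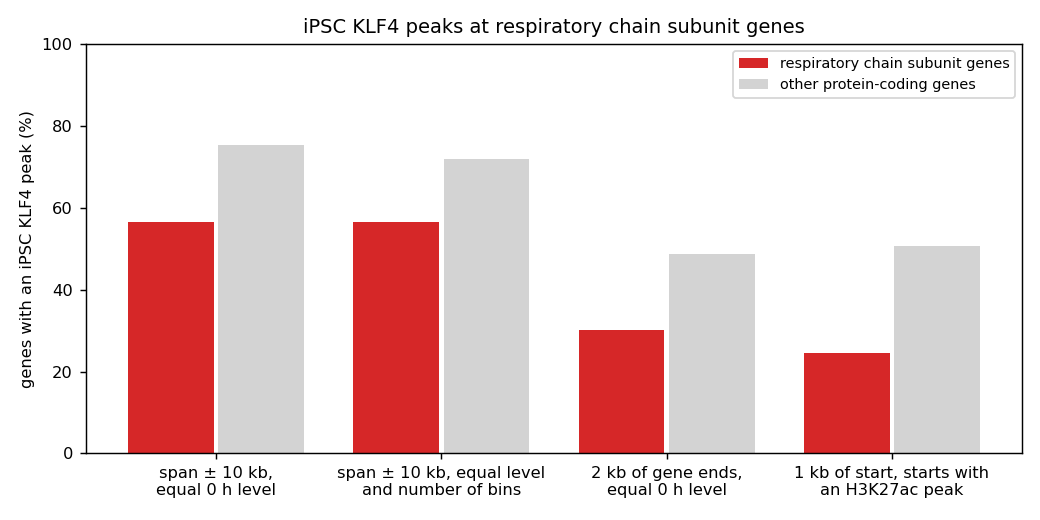
Share of genes with an iPSC KLF4 peak (vertical axis, percent) for respiratory chain subunit genes (red) and other protein-coding genes (grey) under 4 ways of counting; the bars carry no error because each is a share from 1 list. The red bar is lower than the grey one in each pair, with 24.6% against 50.8% at starts that carry H3K27ac. All 4 ways hold the 0 h level equal or require an H3K27ac peak at the start. By number of bins alone, which is not drawn, the share of respiratory genes was the higher, 50.0% against 45.3%.

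Each peak was counted once, by its nearest respiratory start. Of 47 KLF4 peaks centred within 10 kb of such a start, 21 were within 1000 bp (44.7%) and 14 within 500 bp (29.8%), where the shares for starts of other genes were 61.2% and 53.5% of 8906 peaks. Of 220 H3K27ac peaks, 98 were within 1000 bp (44.5%) and 80 within 500 bp (36.4%), where the shares for other genes were 44.7% and 34.2% of 20925 peaks. The shares are not alike in construction, since a peak by a respiratory gene can lie nearer to the start of a neighbour, which was not counted. The peaks over the printed windows were narrow for Atp5pb (166 bp) and Ndufs7 (194 bp) and wider for Ndufaf3 (718 bp) and Ndufa11 (834 bp). The Ndufa11 peak, from 56716703 to 56717536 on chromosome 17, lay mostly upstream of the window and reached only into its first bases, so the NRF1 match printed in capitals was outside it. The printed matches of Atp5pb and Ndufs7 were also outside the KLF4 peaks, and those of Ndufaf3 and Ndufaf4 were inside.

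**Figure D4:**
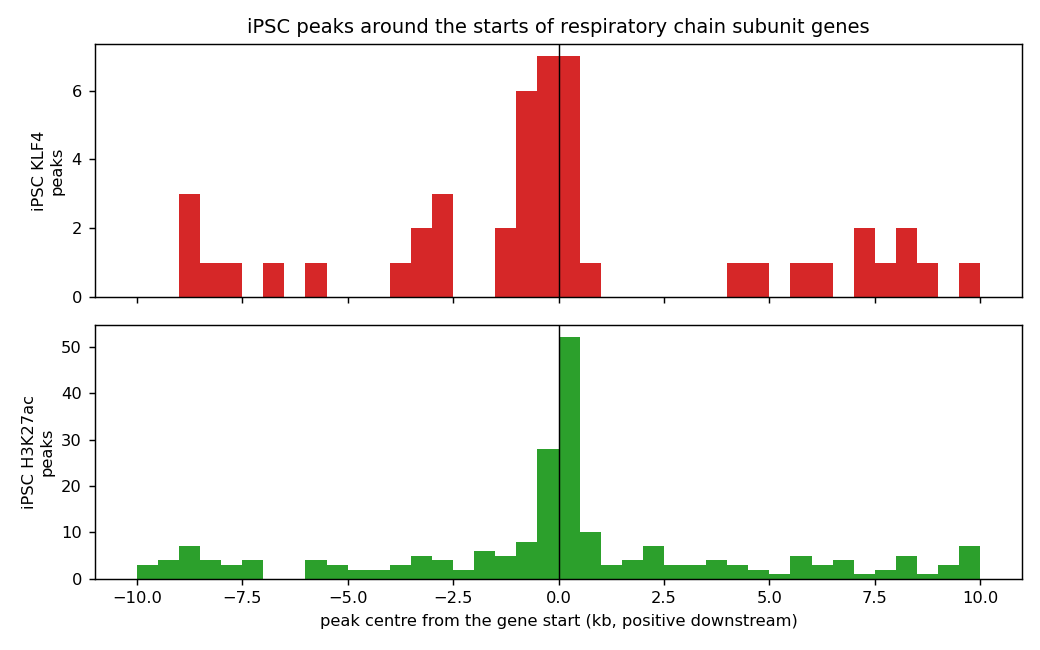
Number of iPSC KLF4 peaks (upper panel) and iPSC H3K27ac peaks (lower panel) by the distance of the peak centre from its nearest respiratory gene start (horizontal axis, kb, positive downstream, bins of 0.5 kb). Each peak is counted once, and 14 of 47 KLF4 peaks and 80 of 220 H3K27ac peaks are centred within 500 bp of the start.

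Of the letters searched, those of NRF1, YY1 and ETS were in a larger share of respiratory promoters than of promoters at large. For ETS the margin was small. The NRF1 letters were in the windows of 17 of 75 genes, 22.7%, where 7.17% of all genes had it, and AAGATGGCG in those of 8 genes, 10.7%, where 2.14% had it. The genes with the YY1 letters were Atp5j, Atp5j2, Ndufa9, Ndufaf8, Ndufc1, Ndufs4, Ndufs6 and Ndufs7, and in the 250 bases before the start alone 1 respiratory gene (1.33%) held them, against 0.84% of other genes. The KLF motif GGGNGTGG was in 18.7% of respiratory and 21.6% of all genes, the SP motif GGGGCGGGG in 14.7% and 17.3%, and the ETS motif CCGGAAGT in 6.67% and 5.69%. Over starts with an iPSC H3K27ac peak, 23.2% of respiratory and 13.6% of all genes had the NRF1 motif and 11.6% and 4.55% the YY1 motif. Over the same starts the KLF motif was in 18.8% of respiratory and 25.7% of all genes, the SP motif in 15.9% and 25.6%, and the ETS motif in 7.25% and 11.2%. In the 250 bases before the start alone, 16.0% of respiratory and 5.80% of other genes held the NRF1 letters. With an iPSC H3K27ac peak at the start, these NRF1 shares were 15.9% (8.24 to 26.7%) and 10.9%. Motifs were searched on both strands, a window counts once, and a match is a description of letters, not of binding.

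The ESC values of the respiratory genes were also split by iPSC KLF4 peaks. The median relative value was -0.02 in the 42 genes with a peak, 25 of them below 0, and 0.03 in the 31 genes without, 11 of them below 0. In other genes the medians were 0.00 with a peak and 0.06 without, with 49.3% and 39.2% below 0. Genes with a peak also had the higher levels, with a median highest 0 h value of 6.65 in respiratory genes with a peak and 5.49 in those without, and with values centred on genes of the same decile of 0 h level the difference of the medians was -0.04, against -0.05 as given. Of the 5 genes past the threshold, Ndufa11, Ndufv3, Cox4i2 and Uqcr10 had a KLF4 peak within 10 kb and Ndufab1 had none. Of the 8359 other measured genes with a peak, 687 were past the threshold higher and 753 lower. Of the 2807 without one, 372 were higher and 151 lower. Atp5d with 6 peaks lay at 0.19. The KLF4 peaks come from iPSCs and the H3K27ac values from ESCs.

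Lists of genes beside the symbol rule were read in the same way. Complex II, which feeds electrons from succinate, had 5 of 8 genes valued at both times with a median of -0.01 and 0 past the threshold in either direction. Sdhc, its membrane anchor, lay at 0.06 and Sdha, the flavoprotein, at -0.18. Cyc1, cytochrome c1 of complex III, lay at 0.04, and Cycs, the mobile cytochrome c, had no value. Of 21 measured assembly factors of complexes III and IV, Sco2 (0.47) and Pet100 (0.43) were past the threshold on the higher side and Cox19 (-0.39) on the lower side, all 3 named after their values were seen. The 2 bins of Sco2 hold 1 repeated value at each time. Cox19 rests on 1 bin, with 1.94 at 24 h and 2.97 at 0 h. A bin of Cox19 with 6.23 at 0 h had no value at 24 h, and the gene had no iPSC H3K27ac peak. The median of these 21 was 0.06 with an SD of 0.22, and the shares over all genes are 9.45% higher and 8.06% lower. Complex I assembly factors outside the symbol rule had a median of 0.21 over 4 measured genes, and ATP synthase partners a median of 0.13 over 4, with an SD of 0.41.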

How the data were processed

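H3K27ac and KLF4 ChIP-seq of mouse ESCs and iPSCs was read from 4 lists deposited by the authors for 12 samples. The build was mm10, and the tools were MACS2, bedtools, Bowtie2 and SAMtools, per the submitters' processing notes, which give no version or role. How replicates were combined, how the values were scaled and the depth are not given in the sources used here. The last column of the deposited ESC lists was read as H3K27ac signal, with the smallest storable number as no value. The fourth column of the deposited ESC lists was read as a score of unstated meaning. The deposited iPSC lists hold positions only.

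Genes and promoter windows came from RefSeq (GRCm38.p6, which shares its chromosomes with mm10), and 75 of 92 genes had a window. Per gene, log2 of the 24 h over the 0 h signal was averaged over bins valued at both times and set against the median of all such bins. Genes of equal level were those of the same decile of the highest 0 h value, weighted to the deciles of the respiratory genes. Overlap was any shared base, intervals are exact binomial at 95% for counting error only, and no p-value was computed, since each group has 1 list. Named genes were those with the 6 lowest and 6 highest relative values, the 6 with most KLF4 or H3K27ac peaks, the 5 highest and lowest 0 h values, the 5 largest score differences each way, those valued at 1 time or none, and those with KLF4 over their window. The members and the 11 gene lists were chosen with earlier results of these data known. The start bin, the counts at acetylated starts and the matching by width, GC or number of valued bins were chosen after seeing the data. Gene values, peak overlap and motif search were tested on simulated data. Python 3.11.15, numpy 2.4.6, pandas 2.3.3 and scipy 1.17.1 were used.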

Additional observations from a re-analysis of the deposited data

Results flagged for a closer look

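Columns 5 to 9 of the ESC lists hold marks of unstated meaning that entered no comparison, and some bins of the respiratory genes carried them. Column 5 was marked in 6 of 267 such bins at 24 h (2.25%, against 3.06% of all bins) and in 6 of 272 at 0 h (2.21%, against 2.92%). Column 7 was marked in 28 bins at 24 h (10.5%, against 11.2%) and in 28 at 0 h (10.3%, against 11.4%). Column 8 was marked in 14 bins at 24 h (5.24%, against 3.53%) and in 15 at 0 h (5.51%, against 3.54%).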

How the results depend on the processing

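No paired analysis was possible because the lists hold no replicate values, and leaving out a replicate was not run for the same reason. Over the alternatives, 82 summary values stayed and 40 moved, by the SD across genes for medians, the exact binomial interval for shares and 1.5 times for counts. Some of the 82 could not move, such as the median at 1.5-fold or the difference of medians by KLF4 peak without centring. For that difference (-0.05) the SD of 0.16 is a wide limit, and a reversal of equal size would also have counted as stayed. The number that stayed is thus no measure of stability.

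Adjacent bins can hold 1 repeated value, as in Ndufa11, Ndufab1 and Ndufs4, and such bins are not separate measurements. With 1 bin kept per run of equal values the median relative value was 0.00, with 3 genes past the threshold higher and 2 lower. The median relative value was -0.23 with no centring, and 93.2% of genes were then below 0. Without centring 0 genes were past the threshold on the higher side and 18 on the lower side. Counts past the threshold were 0 higher and 0 lower in the 10 genes measured with no other gene in their bins (70.0% of them below 0). They were 5 higher and 4 lower by the highest value at each time, 0 and 0 at 1.5-fold, and 1 and 1 in the bin of the start. The lower count alone was 0 without flanks, 1 with 25 kb flanks, 1 without restricted isoforms and assembly factors, and 0 in bins above the median value, where 35.7% of genes were below 0. The higher count was 2 with 25 kb flanks and 2 in bins above the median. Shares over all genes were counted for the main setting and for the bin of the start (6.05% higher, 8.75% lower). They were not counted for the other settings that change the values or the threshold. Those counts are therefore not set against genes at large. With 25 kb flanks Cox4i2 (-0.14), Ndufab1 (0.24) and Ndufv3 (0.28) were inside the threshold. Uqcr10 turned to 0.068 without flanks, 0.071 by the highest value, 0.088 in bins above the median and 0.068 in the bin of the start, and Ndufab1 turned to -0.29 by the highest value. Of the 12 genes with no other gene in their bins, 10 had a value at 24 h and 12 at 0 h.

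The KLF4 share of respiratory genes and of other genes of equal level was 21.9% and 56.6% without flanks. It was 75.0% and 85.2% with 25 kb flanks, and 36.8% and 55.5% for peaks wider than the median. Span was not matched in any of these pairs. Genes with a 0 h value had a median length of 7285.5 bp in respiratory and 21289 bp in other genes. Within 2 kb of gene ends the KLF4 shares were 30.3% and 48.6%. The KLF4 share was 41.7% in the 12 respiratory genes without neighbours. At acetylated starts it was 24.6% and 50.8%, with 49.1% at equal decile of width, 43.9% at equal GC and 42.9% at equal GC with width only above or below its middle. The share was lower in respiratory genes in each of these pairs. It was higher in them, 50.0% against 45.3%, by number of bins touched alone. The H3K27ac share was 100.0% in respiratory genes with 25 kb flanks, without isoforms and assembly factors, and in genes without neighbours, and in other genes 85.2% without flanks and 72.7% within 2 kb of gene ends. The YY1 letters were in 1.33% of windows before the start only. The cause of these shifts was not tested. The unknown depth and scaling limit every comparison of values between the times.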

Other observations

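Genes of the tricarboxylic acid cycle, which supplies NADH and succinate to the chain, were read in the same ESC lists. Over 15 of 17 measured genes the median relative value was -0.01 with an SD of 0.40, beside 0.16 over the 73 respiratory genes and 0.27 over all measured genes, with Dlst and Pdha1 at its ends. Dlst, the succinyl transferase of the 2-oxoglutarate dehydrogenase complex, had mean values of 4.47 at 24 h and 2.36 at 0 h, a relative value of 1.15. Its 2 bins hold 1 repeated value at 24 h. At 0 h they reached at most 2.43, below the median of 4.655 over all valued bins, and Dlst had no iPSC KLF4 or H3K27ac peak. Pdha1, the α subunit of pyruvate dehydrogenase, had 5.57 at 24 h and 10.7 at 0 h (-0.71) with 3 KLF4 peaks, and Idh3g, a subunit of isocitrate dehydrogenase, had 6.42 at 24 h and 9.24 at 0 h (-0.36). The 2 bins of Pdha1 hold 1 repeated value at each time. Dlst, Pdha1 and Idh3g are the genes of this list past the threshold of 0.32, 1 higher and 2 lower of 15, where 9.45% of all genes were higher and 8.06% lower, and were named after their values were seen. Idh2, with the most KLF4 peaks of the list (6), lay at -0.13.

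Among 14 measured regulators of mitochondrial biogenesis the median was 0.06. Esrra, a nuclear receptor known to act on respiratory genes, was past the threshold with 4.12 at 24 h and 3.81 at 0 h (0.34). It was 1 of the 14, where 9.45% of all genes were higher, and was named after its value was seen. Atpaf1, an ATP synthase assembly factor of the F1 part, had 2.32 at 24 h and 4.28 at 0 h (-0.66). It was 1 of 4 measured ATP synthase partners, where 8.06% of all genes were lower, and was also named after its value was seen.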
